A study of Mus musculus with 8 samples.

Results

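Lysosomal genes and the transcription factors of the TFEB family were followed in bone marrow-derived macrophages (BMDMs) of the mouse. The members were 49 genes of a fixed list, matched by symbol to the Ensembl identifiers, of 54532 genes in each count table. The rule takes genes by name and role, and the list was drawn up with earlier results of these data known. They comprised 3 transcription factors (Tfeb, Tfe3 and Mitf), 10 proteases, 15 glycan-degrading enzymes, 7 lipid-handling proteins, 6 membrane proteins, 7 proteins of the proton pump and 1 enzyme-sorting gene (Gnptg). All 49 passed the filter on low counts that left 14591 genes for testing.

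RNA-Seq of polyadenylated RNA was performed on 8 libraries in 4 groups of 2. WT BMDMs came from purchased wild-type mice, and Trex1-KO BMDMs from Trex1-/- offspring of heterozygous parents, all in the C57BL/6J background and 6 to 8 weeks old. The marrow was cultured for 7 days in medium with L929 cell supernatant, which supplies the macrophage growth factor. WT and Trex1-KO cells received the solvent DMSO for 12 h, Trex1-KO+H151 cells received the STING antagonist H151 at 500 nM for 12 h, and Trex1-KO+SN-011 cells received SN-011, another STING antagonist. The labels give no dose or time for SN-011, and the methods of the study give the same dose and time as for H151. By their sample numbers the SN-011 libraries were deposited apart from the others, and whether all were prepared or sequenced together is not stated. Any difference of batch cannot be told apart from that of SN-011. WT cells with an antagonist were not part of the comparison, so the effect of either compound in the presence of Trex1 cannot be read. The study describes the libraries of a group as independent experiments, while the labels do not say what the replicate numbers stand for, and the p-values measure the spread between these libraries.

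Lysosomes are the acidic compartments in which macrophages degrade material they have engulfed or sorted for destruction. Soluble hydrolases cut proteins, glycans and lipids there, membrane proteins protect the boundary and carry products out, and a proton pump, the vacuolar ATPase, keeps the interior acidic. TFEB, TFE3 and MITF are related basic helix-loop-helix leucine zipper factors that bind E-box sequences, among them the CLEAR element found in the promoters of many lysosomal genes, and their entry into the nucleus is held back by mTORC1. TREX1 is the exonuclease that degrades cytosolic DNA, STING is the adaptor that signals when such DNA is sensed by cGAS, and activated STING itself ends in lysosomes. The comparisons address whether lysosomal genes differ in Trex1-KO macrophages and whether blocking STING alters them.

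The libraries held 11845470 to 17284863 counts, so that 1 count was worth 0.0582 to 0.0849 CPM, the count of a gene as a share of its library, here with library totals adjusted by the trimmed mean of M-values (TMM). Trex1 had 0 counts in all 8 libraries, WT included. All its annotated exons lie in exons of Atrip on the same strand, so that the count tables cannot check the knock-out. Macrophage markers summed to between 9205 and 10260 CPM in every library, and edgeR called 3 of the 7 higher in Trex1-KO cells compared with WT, with Fcgr1 (log2 fold change 1.14, adjusted p = 2.66e-07) above Cd68 (0.44, 0.000208) and Adgre1 (0.19, 0.0249). The other 4, Csf1r (0.01), Mertk (0.04), Itgam (-0.06) and Cd14 (0.15), were not called. Of the other lists of markers, all 7 stromal genes were above 3 counts and summed to 2300 and 2099 CPM in WT libraries against 862.5 to 1222 CPM in the other 6, and 6 of 7 neutrophil genes were above 3 counts and summed to 8.17 and 6.91 CPM in WT against 46.9 to 76.8 CPM. The osteoclast genes summed to 19.6 and 20.3 CPM in WT and 22.2 to 26.9 CPM in the others, with Calcr at 0 throughout. All 3 osteoclast genes that passed the filter were called in Trex1-KO compared with WT, Acp5 (1.21) and Mmp9 (0.58) higher and Ctsk (-0.97) lower. The dendritic cell genes summed to 2.65 and 1.63 CPM in WT and 2.85 to 3.62 CPM in the others, with Ccr7 at 0, and of the 3 tested Xcr1 and Clec9a were called higher and Zbtb46 was not called. Cd4 was the 1 T cell gene tested and was called lower (-0.68), in a list that summed to 34.0 and 33.4 CPM in WT and 18.2 to 21.7 CPM in the others. The 1 tested gene of the B cell list (Cd79b) and that of the mast cell list (Cpa3) were not called. The part of these cells in the values below was not tested, and in bulk RNA fewer cells of a type and less RNA per cell cannot be told apart.

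The promoters of several members hold the core of the binding site of the TFEB family. The sequences below are examples from called and uncalled members. They are stretches before the RefSeq start site (GRCm38.p6), written 5′ to 3′ on the gene's strand, and capitals mark each E-box core CACGTG. Ctsa, Gla and Clcn7 were called higher in Trex1-KO cells, Glb1 was called lower, and Lamp1 and Mcoln1 were not called. The stretches are chr2:164833749-164833772 (plus strand) for Ctsa, chrX:134601182-134601244 (minus strand) for Gla, chr17:25133364-25133390 (plus strand) for Clcn7, chr9:114401018-114401047 (plus strand) for Glb1, chr8:13159088-13159160 (plus strand) for Lamp1 and chr8:3500436-3500491 (plus strand) for Mcoln1.
Ctsa: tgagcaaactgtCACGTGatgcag
Gla: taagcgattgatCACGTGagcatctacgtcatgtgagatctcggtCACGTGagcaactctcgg
Clcn7: tccgtcgtcagtCACGTGggcaccgat
Glb1: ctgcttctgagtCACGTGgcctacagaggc
Lamp1: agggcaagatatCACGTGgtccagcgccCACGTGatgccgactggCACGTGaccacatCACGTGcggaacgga
Mcoln1: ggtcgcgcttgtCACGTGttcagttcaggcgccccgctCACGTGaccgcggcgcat

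Lamp1 held 4 such cores in 73 bases, and Gla and Mcoln1 held 2 each. Where the core is flanked as TCACGTGA it is the centre of the CLEAR element. Both cores of Gla, the core of Ctsa and the core of Mcoln1 nearer its start site had that form. RefSeq windows from 250 bases before to 50 bases after a start site were at hand for 42 of the 49 members, and those of the other 7 were not analysed here. The E-box core CACGTG occurred in the windows of 15 of 42 members (35.7%), compared with 8.09% of all 27025 genes with a window. The CLEAR core TCACGTGA, each match of which is also an E-box core, occurred in 8 of 42 (19.0%), compared with 1.12% of all genes. The M-box core CATGTG, a variant site of MITF, occurred in 8 of 42 (19.0%, all genes 15.9%), and the core of the interferon-stimulated response element (ISRE) in 3 of 42 (7.14%, all genes 3.99%). Both strands were searched. The matches are descriptions of sequence and not sites of measured binding, and the list holds genes that are known for such sites.

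In WT BMDMs the members differed by orders of magnitude in level. Per kilobase of annotated exon, Psap, the precursor of the saposins that assist sphingolipid breakdown, stood highest at 3170 CPM per kb, followed by the proteases Ctsb at 2286, Ctsd at 1873 and Ctss at 1356 CPM per kb. Arsb was lowest at 2.09 CPM per kb. Tfe3, at 19.2 CPM per kb, stood above Mitf (13.8) and Tfeb (7.84), which took rank 47 of 49. The members with the largest share of exonic bases that also belong to another gene were Gnptg (49.5%), Arsb (39.9%), Ctsd (34.4%), Ctsl (26.9%) and Sgsh (21.6%). How reads over shared bases were counted is not stated. Of 492 genes lying wholly in exons of an opposite-strand gene, 3 had a count. Reads over shared bases may thus be missing, and the levels of these members per kilobase are uncertain and may be too low.

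The members took 5.00% and 5.10% of all counts in the WT libraries and 5.64% and 5.57% in the Trex1-KO libraries, before TMM normalisation. The share was 5.69% and 5.74% with H151 and 5.68% and 5.74% with SN-011, so that all 6 Trex1-KO libraries lay above both WT libraries. Mitochondrial genes split the libraries along the same line, with 1.69% and 1.66% of counts in WT and 1.26% to 1.45% in the other 6, and their part in the result was not tested. Most of the difference sat in Ctsb, Psap and Ctsd, which together went from a mean of 2.79% ± 0.040 (SD, n = 2) in WT to 3.19% ± 0.056 in Trex1-KO. The other 46 members went from 2.27% ± 0.035 to 2.42% ± 0.0052. By role, proteases took 2.55% of counts in WT and 2.90% in Trex1-KO, lipid-handling proteins 1.31% and 1.5%, and the proton pump 0.227% and 0.250%. Glycan-degrading enzymes took 0.506% ± 0.019 in WT and 0.493% ± 0.0066 in Trex1-KO, which overlapped in their spread, and membrane proteins took 0.430% and 0.433%.

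**Figure D1:**
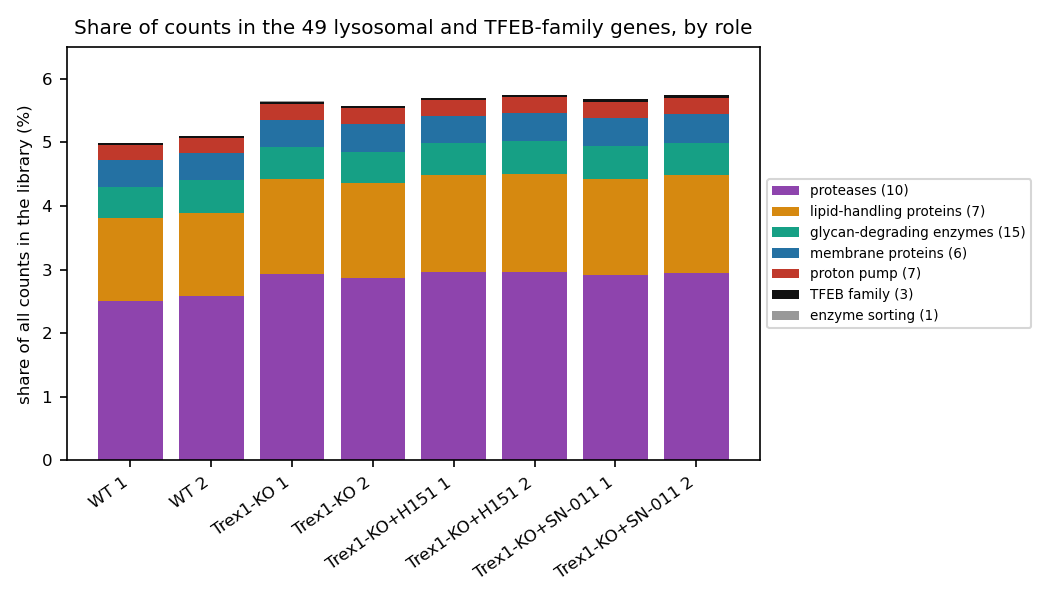
Share of all counts (%) taken by the 49 members in each of the 8 libraries, with the bar of each library stacked by role and the number of genes of a role in brackets. The 2 WT bars end at 5.00% and 5.10%, and the 6 Trex1-KO bars, with or without an antagonist, end between 5.57% and 5.74%.

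In Trex1-KO compared with WT cells, lysosomal genes were higher more often than lower. Of the 49 members, 21 were called higher and 2 lower at a false discovery rate (FDR) under 0.05 in edgeR's quasi-likelihood test, adjusted over all genes tested. Over all 14591 genes, 9.27% were called higher and 7.11% lower. All members averaged at least 10 CPM, and among the 8912 genes at that level 12.6% were called higher and 6.13% lower. Both Trex1-KO libraries were above both WT libraries in 35 of 49 members (28.6% of all genes) and below in 2 (27.5% of all genes). The changes were small, with a median log2 fold change of 0.17 over the members against -0.00 over all genes, and the 21 raised members had a median of 0.27. When scaling used library totals instead of TMM, the median of all genes moved to -0.09, that of the members to 0.09, and 12 members were called higher and 2 lower. Without WT replicate 2, 14 were called higher and 1 lower.

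Among the transcription factors, Tfeb and Mitf were higher in Trex1-KO cells. Tfeb was at 46.7 and 42.2 CPM in WT, 55.2 and 54.4 in Trex1-KO, 57.6 and 52.1 with H151, and 58.2 and 60.1 with SN-011. Both WT libraries were the lowest of the 8, and the 3 groups without Trex1 overlapped except that both SN-011 libraries were the highest. The log2 fold change of Tfeb was 0.30 ± 0.08 (SE, n = 2 per group; edgeR adjusted p = 0.0210) in Trex1-KO, and it was not called by DESeq2 (adjusted p = 0.0628), with library totals (0.0928), or without WT replicate 2 (0.235) or either Trex1-KO library (0.113 and 0.0639).

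Mitf was at 87.0 and 84.5 CPM in WT, 103 and 102 in Trex1-KO, 103 and 99.5 with H151, and 96.2 and 97.8 with SN-011. Its libraries without Trex1 were all above both WT libraries, and those with SN-011 were the lowest of the 6. The log2 fold change in Trex1-KO was 0.26 ± 0.06 (edgeR adjusted p = 0.00878), which ended as a call with library totals (adjusted p = 0.0716), without either WT library (0.0546 and 0.106) and without Trex1-KO replicate 1 (0.0779). Tfe3, at 180 and 175 CPM in WT and 200 and 185 in Trex1-KO, differed by 0.11 ± 0.07 (adjusted p = 0.292). Its 2 Trex1-KO values were above both WT values, but with H151 (195 and 178) and SN-011 (179 and 186) they overlapped WT. Over the promoter windows of these 3 genes there was no E-box core.

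**Figure D2:**
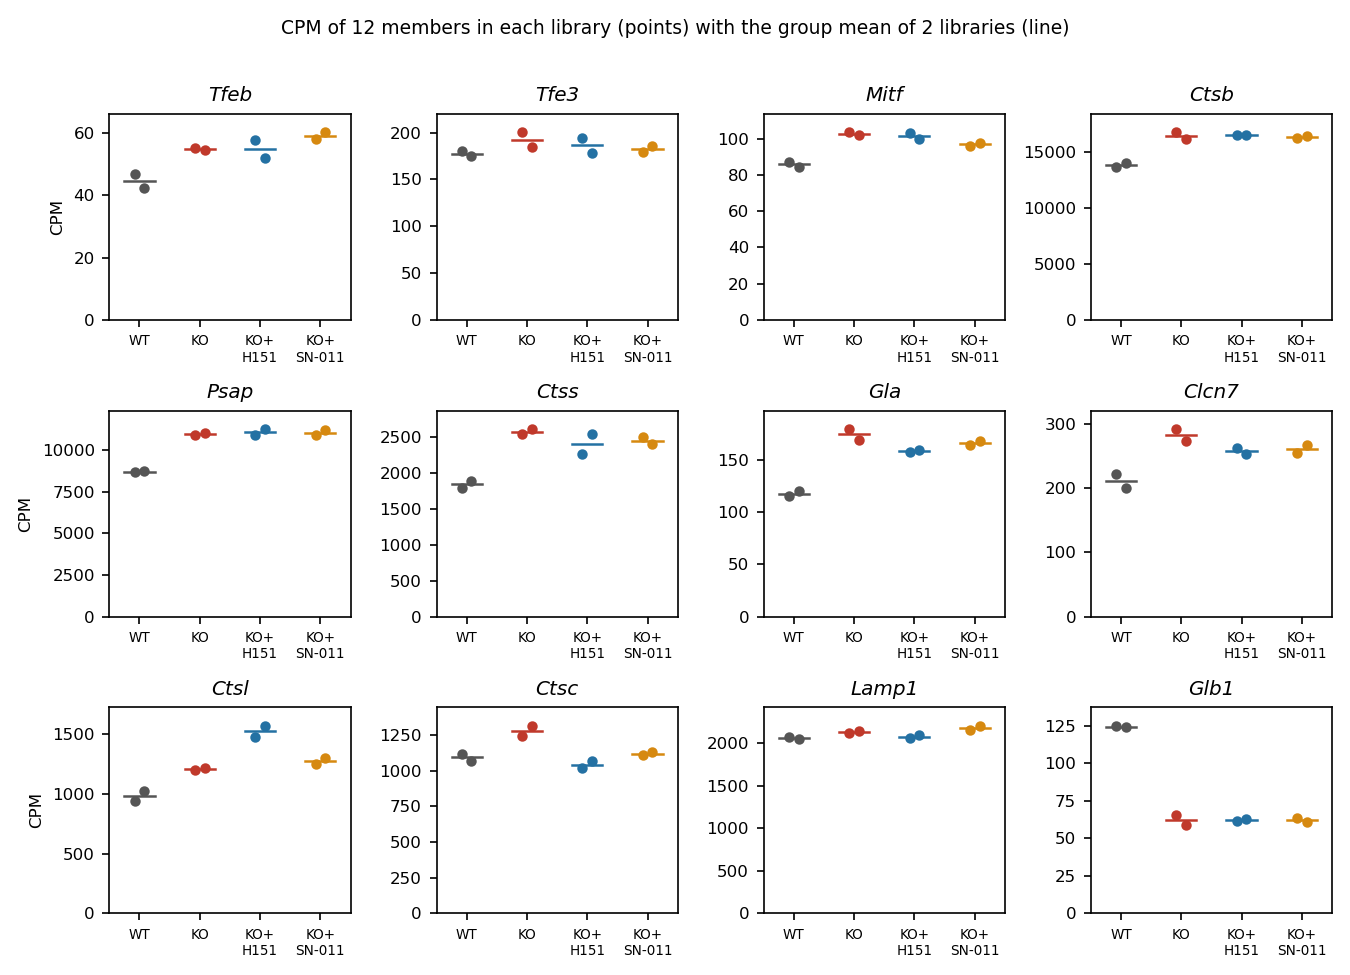
CPM (linear axes from 0) of 12 members in each library, with 1 point per library and a line at the mean of the 2 libraries of a group. Tfeb, Mitf, Ctsb, Psap, Ctss, Gla, Clcn7 and Ctsl lie above WT in all 6 Trex1-KO libraries, Glb1 lies near 60 CPM in these 6 against 125 and 124 CPM in WT, and Ctsc lies lower with H151 than in Trex1-KO alone.

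The proteases were the role with the most members called, 7 of 10 higher and 0 lower (8 of 10 at an unadjusted p under 0.05). Among all genes at 10 CPM or more, 12.6% were called higher and 6.13% lower. Ctss encodes cathepsin S, which trims the invariant chain for antigen presentation. It was at 1794 and 1888 CPM in WT and 2538 and 2606 in Trex1-KO, and at 2262 and 2544 with H151 and 2493 and 2396 with SN-011. All 6 libraries without Trex1 were above both WT libraries, and its log2 fold change was 0.48 ± 0.06 (edgeR adjusted p = 4.62e-05). Ctsz, a carboxypeptidase, was at 605 and 582 CPM in WT and 726 and 786 in Trex1-KO, and at 665 and 772 with H151 and 749 and 711 with SN-011. Its groups with and without Trex1 did not overlap, with a log2 fold change of 0.35 ± 0.07 in Trex1-KO (adjusted p = 0.00319).

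The most abundant proteases rose by less. Ctsb, a cysteine protease, was at 13654 and 14013 CPM in WT and 16755 and 16198 in Trex1-KO, which differed by 0.25 ± 0.04 on the log2 scale (edgeR adjusted p = 0.000312). Ctsd, the main aspartic protease, was at 4354 and 4453 CPM in WT and 5360 and 5237 in Trex1-KO (0.27 ± 0.04, adjusted p = 0.000524). These 2 genes did not overlap between the groups. The other raised proteases were Ctsl (0.30 ± 0.06), Ctsa (0.23 ± 0.05), a carboxypeptidase that also shields beta-galactosidase and neuraminidase, and Ctsc (0.23 ± 0.05), which activates serine proteases of granules. Ctsh (-0.05), Scpep1 (0.10) and Tpp1 (0.17) were not called.

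Upstream of the start of Ctss lay an ISRE core, shown because Ctss had the largest log2 fold change of the proteases. It is marked in capitals within chr3:95526747-95526785 (GRCm38.p6, plus strand), and the search on the same window found no E-box core.
Ctss: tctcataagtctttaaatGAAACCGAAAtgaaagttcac

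Of the glycan-degrading enzymes, 3 of 15 were called higher and 2 lower. With 12.6% of genes at 10 CPM or more called higher and 6.13% lower, these counts are within about 1 gene of the background and do not set the role apart. Gla encodes alpha-galactosidase A, which removes galactose from glycolipids. It was at 115 and 119.7 CPM in WT and 179 and 169 in Trex1-KO, and at 157 and 159.5 with H151 and 164 and 167 with SN-011. All libraries without Trex1 were above WT, and the log2 fold change was 0.57 ± 0.06 (edgeR adjusted p = 1.55e-05). Both E-box cores in the promoter stretch of Gla had the CLEAR form, which Ctsa and the uncalled Mcoln1 also held. Arsb, the sulfatase of dermatan sulfate, was at 12.9 and 12.4 CPM in WT and 19.5 and 18.9 in Trex1-KO, and at 18.1 and 16.2 with H151 and 15.9 and 16.4 with SN-011. Its log2 fold change was 0.60 ± 0.12 (adjusted p = 0.00286), the largest rise among the members and at the lowest level per kb. Fuca1, a fucosidase, rose by 0.27 ± 0.06.

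Glb1, which encodes lysosomal beta-galactosidase, fell. It was at 125 and 124 CPM in WT and 65.4 and 58.7 in Trex1-KO, and at 61.3 and 62.8 with H151 and 63.6 and 60.6 with SN-011. The 6 libraries without Trex1 lay within 58.7 to 65.4 CPM, the Trex1-KO level was 0.498 of the WT level, and the log2 fold change of -1.01 ± 0.07 was the largest of any member (edgeR adjusted p = 2.51e-07). Glb1 (ENSMUSG00000045594) lies at chr9:114401076-114474898 (GRCm38), 5.34 Mb from Trex1, and the effect of lacking Trex1 and that of sequence linked to the knockout allele cannot be told apart. Sgsh, a sulfatase of heparan sulfate, was at 142 and 155 CPM in WT and 130.3 and 123 in Trex1-KO, with 133 and 141 with H151 and 141 and 135 with SN-011. Its log2 fold change was -0.24 ± 0.07 (adjusted p = 0.0286), which was not called by DESeq2 (0.0541) or without WT replicate 2 (0.213) or Trex1-KO replicate 2 (0.176). The other 10 enzymes of this role were not called, with Hexa, the alpha subunit of beta-hexosaminidase, nearest to the threshold (0.15 ± 0.05, adjusted p = 0.0527).

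Of the lipid-handling proteins, 4 of 7 were called higher, against 12.6% of genes at 10 CPM or more. Psap was at 8680 and 8718 CPM in WT and 10899 and 10990 in Trex1-KO, and at 10891 and 11244 with H151 and 10869 and 11178 with SN-011. Its groups with and without Trex1 were far apart relative to their spread, and the log2 fold change was 0.33 ± 0.04 (edgeR adjusted p = 3.88e-05). Ppt1, a thioesterase that removes palmitate from proteins, rose by 0.27 ± 0.06, and Lipa, the acid lipase of cholesteryl esters, by 0.23 ± 0.05. Npc2, which hands cholesterol to NPC1, rose by 0.21 ± 0.06 (adjusted p = 0.0381), a call that was lost in DESeq2 (0.0515), edgeR's exact test (0.0589) and with library totals (0.197), and on leaving out any 1 of the WT, Trex1-KO or SN-011 libraries (0.0717 to 0.232). Npc1 (-0.07), the ceramidase Asah1 (0.01) and the sphingomyelinase Smpd1 (0.21) were not called.

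Of the membrane proteins, 2 of 6 were called higher. With 12.6% of genes at 10 CPM or more called higher, a count of 2 in so few genes does not set the role apart. Clcn7, the chloride-proton exchanger of the lysosome, was at 221 and 200.3 CPM in WT and 291 and 272 in Trex1-KO, and at 262 and 253 with H151 and 255 and 267 with SN-011. Its groups with and without Trex1 did not overlap (log2 fold change 0.42 ± 0.06, edgeR adjusted p = 0.000434). Lamp2, which serves in chaperone-mediated autophagy and vesicle fusion, rose by 0.24 ± 0.05. Lamp1, the abundant coat glycoprotein whose promoter held 4 E-box cores, was at 2068 and 2046 CPM in WT and 2118 and 2141 in Trex1-KO. These values did not overlap, but the log2 fold change was 0.05 (95% interval -0.05 to 0.15) and was not called. Mcoln1, the calcium channel of the lysosome, was at 117 and 126 CPM in WT and 109 and 118 in Trex1-KO (-0.10), with overlapping groups. Cd63 (0.01) and Scarb2 (0.05) were not called.

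Of the proton pump, 3 of 7 were called higher, against 12.6% of genes at 10 CPM or more. All 7 had log2 fold changes above 0. Atp6v1b2, a subunit of the catalytic ring, rose by 0.30 ± 0.05 (edgeR adjusted p = 0.00183), Tcirg1, a membrane subunit, by 0.28 ± 0.05 (0.00245), and the accessory subunit Atp6ap1 by 0.19 ± 0.06 (0.0452). The call on Atp6ap1 was not made by DESeq2 (0.0846), edgeR's exact test (0.0665) or with library totals (log2 fold change 0.10, adjusted p = 0.28). It was also lost without either WT library (log2 fold change 0.19 and 0.16), Trex1-KO replicate 1 (0.13) or either SN-011 library (0.19 and 0.18). Atp6v1a (0.20, adjusted p = 0.0514) and Atp6v0d2 (0.28, 0.0796) missed the threshold. Gnptg, a subunit of the enzyme that marks hydrolases with mannose phosphate, differed by 0.13 and was not called.

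Of the 23 members called in either direction, 12 were called under every alternative and with any 1 of the 8 libraries left out. These were Arsb, Atp6v1b2, Clcn7, Ctsb, Ctsd, Ctsl, Ctss, Ctsz, Gla, Glb1, Psap and Tcirg1. The other 11 were lost in at least 1 of them, and none changed direction.

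E-box cores were found in members that were called and in members that were not called. The core was found in 5 of 19 members with a window that were called higher, 8 of 21 that were not called, and both of those called lower. The CLEAR core was found in 4 of 19 called higher, 4 of 21 not called and 0 of 2 called lower. The M-box core was found in 5 of 19 called higher, 3 of 21 not called and 0 of 2 called lower, and the ISRE core in 2 of 19, 1 of 21 and 0 of 2.

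**Figure D3:**
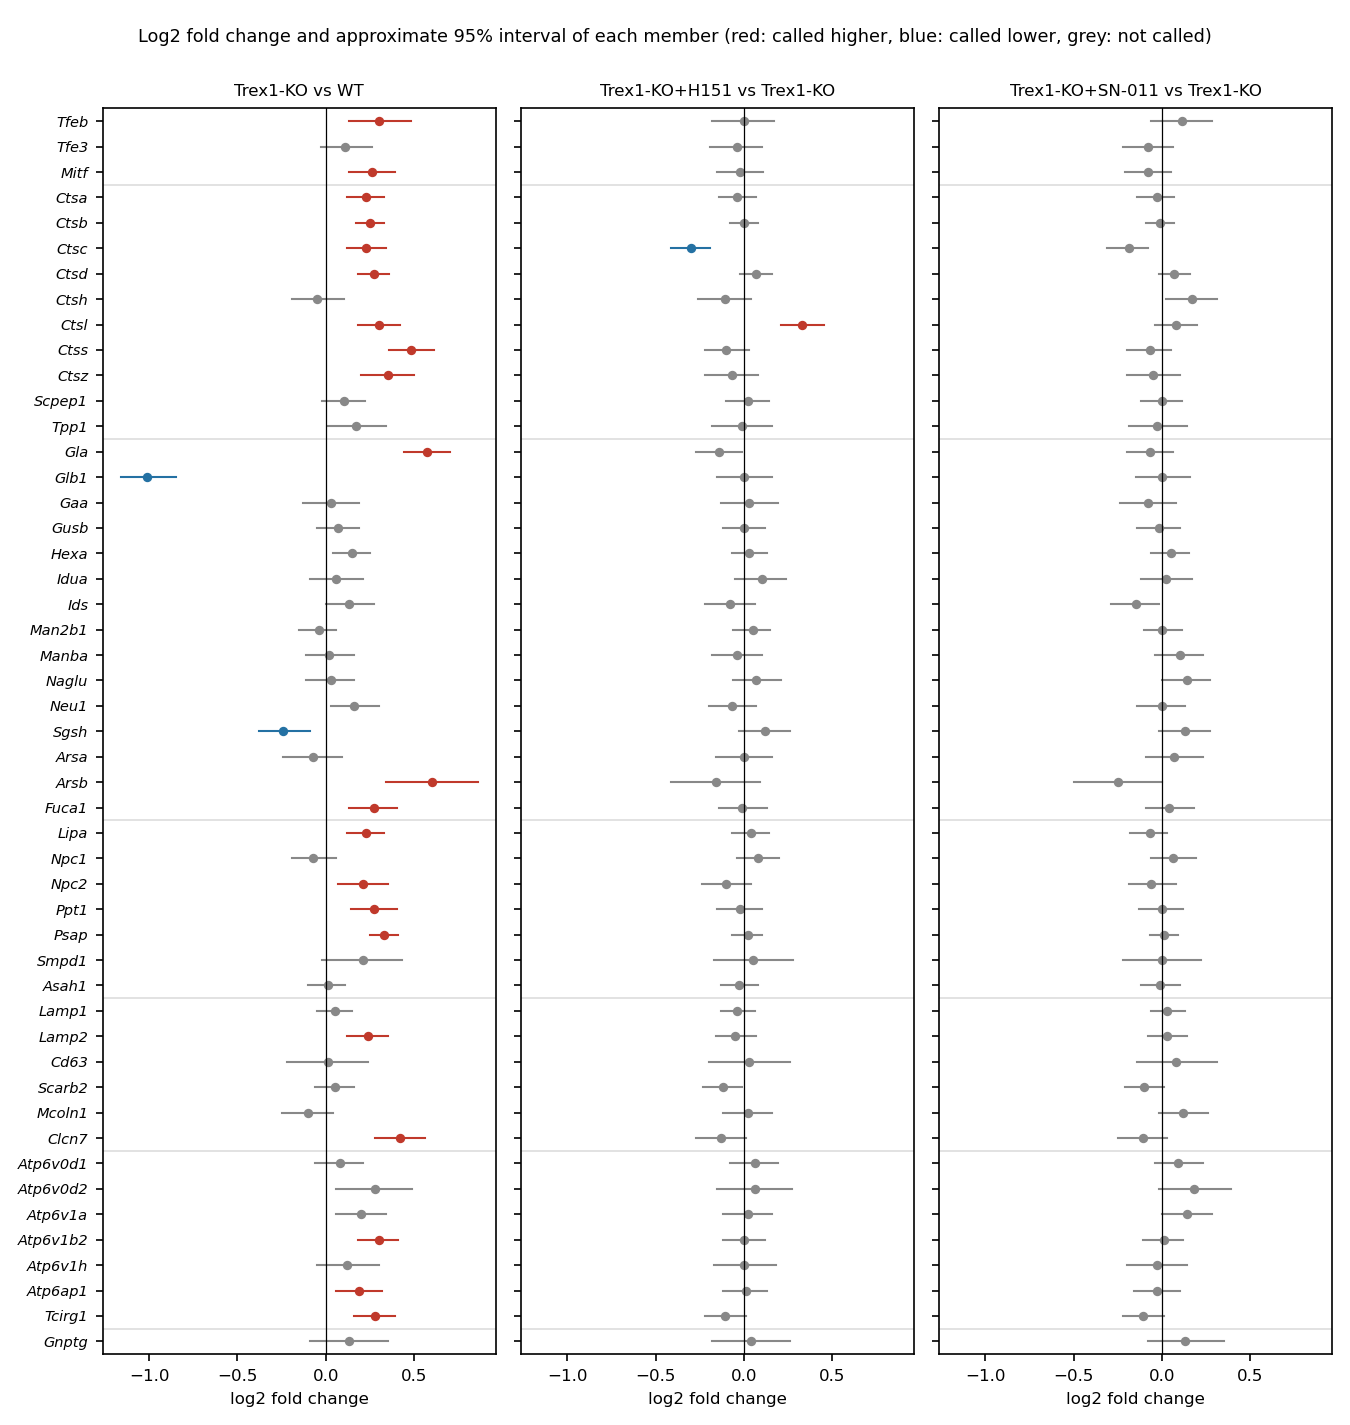
Log2 fold change (points) with its approximate 95% interval (lines) of each member in Trex1-KO against WT, and in H151-treated and SN-011-treated against untreated Trex1-KO cells, ordered by role. In the left panel 21 members are red (called higher) and 2 blue (called lower), in the middle panel Ctsl is red and Ctsc blue, and in the right panel all are grey (not called).

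The STING antagonists left nearly all members near their level in Trex1-KO cells. With H151, 1 of 49 members was called higher and 1 lower than in Trex1-KO, with 0.384% of all genes called higher and 1.84% lower. The median log2 fold change of the members was -0.00, and 4 had an unadjusted p under 0.05. With SN-011, 0 of 49 members were called in either direction, compared with 2.33% of all genes, and the median was 0.00. In that comparison 5 members had an unadjusted p under 0.05, and both DESeq2 and edgeR's exact test called 0. Both comparisons use the same Trex1-KO libraries. The 95% intervals had a median half-width of 0.14 on the log2 scale, and lay wholly within -0.5 to 0.5 for all 49 members with H151 and for 48 with SN-011, all but Arsb.

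Ctsl and Ctsc, both cysteine proteases, moved in opposite directions with H151. Ctsl, a broad endopeptidase, was at 942 and 1029 CPM in WT, 1203 and 1217 in Trex1-KO, 1480 and 1571 with H151, and 1254 and 1302 with SN-011. The H151 libraries were the highest and the WT libraries the lowest, without overlap with any other group. Its log2 fold change with H151 was 0.33 ± 0.06 (edgeR adjusted p = 0.00373) and with SN-011 0.08 (95% interval -0.04 to 0.20), and the call with H151 was made under every alternative.

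Ctsc was at 1116 and 1069.7 CPM in WT, 1246 and 1313 in Trex1-KO, 1015 and 1065 with H151, and 1107 and 1129.6 with SN-011. Both Trex1-KO libraries were the highest of the 8, those with H151 lay below both WT libraries, and those with SN-011 overlapped WT. The log2 fold change was -0.30 ± 0.05 with H151 (edgeR adjusted p = 0.00517) and -0.19 ± 0.05 with SN-011 (adjusted p = 0.0796). The H151 call was lost when the 2 groups were fitted alone (0.0587) and without Trex1-KO replicate 2 (0.0653). The SN-011 value passed the threshold when the 2 groups were fitted alone (0.0370) and with no filter beyond 1 count (0.00426). It also passed without either H151 library (log2 fold change -0.19 and -0.20).

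The TFEB family itself differed little with an antagonist. Tfeb differed from Trex1-KO by -0.00 with H151 (95% interval -0.18 to 0.17) and by 0.11 with SN-011 (-0.06 to 0.28). The values of Mitf were -0.02 (-0.15 to 0.11) and -0.08 (-0.21 to 0.05), and those of Tfe3 were -0.04 (-0.19 to 0.10) and -0.08 (-0.22 to 0.06). None was called. Gla lay at -0.14 on the log2 scale with H151 (-0.27 to -0.01, edgeR adjusted p = 0.470) and was not called, and Glb1 differed by 0.00 with either compound (-0.15 to 0.16).

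H151 and SN-011 were compared directly over the 49 members, at the same dose and time by the methods of the study. Any batch difference between these separately deposited libraries cannot be told apart from that between the compounds. No member was called between them in edgeR's quasi-likelihood test, where 0.158% of all genes were called, and 4 had an unadjusted p under 0.05. DESeq2 and edgeR's exact test also called 0. Ctsl had a log2 difference of SN-011 from H151 of -0.26 ± 0.06 (95% interval -0.38 to -0.14, adjusted p = 0.151), and its libraries did not overlap between the 2 compounds. Ctsl was called between the compounds when no filter beyond 1 count was used (5.39e-05) and in the fit with a replicate block (0.0438), and in the other alternatives its adjusted p ran from 0.0657 in DESeq2 to 0.875 without SN-011 replicate 1. Ctsh, an aminopeptidase of the same protease family, differed the other way and by the most of any member, at 164 and 186 CPM with H151 and 215 and 209 with SN-011. Its log2 difference was 0.28 ± 0.07 (95% interval 0.13 to 0.42, edgeR adjusted p = 0.222), without overlap between the compounds. Such separation was common, with both SN-011 libraries above both H151 libraries in 13 of 49 members and below in 8. The share among all genes was not worked out. Ctsh was called without H151 replicate 2 (0.37, adjusted p = 0.0176) and when no filter beyond 1 count was used (0.00766), and without H151 replicate 1 the difference was 0.19 (0.998). Ctsc differed by 0.10 (-0.01 to 0.22) and Tfeb by 0.11 (-0.06 to 0.28).

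Set against WT, the treated cells gave values close to those of untreated Trex1-KO cells, and all 3 comparisons share the WT libraries. With H151, 20 members were called higher and 1 lower than in WT (6.79% and 5.04% of all genes). With SN-011, 17 were called higher and 1 lower (6.18% and 5.57% of all genes). The 1 lower member was Glb1 in both. Of the 21 members raised in Trex1-KO cells, 17 were called higher than WT with H151 and 14 with SN-011, and the median log2 fold change over all 21 was 0.26 and 0.30. Those 14 were called in both, and 4 were called in neither. Of these, Ctsc had log2 fold changes from WT of 0.23 in Trex1-KO, -0.07 with H151 and 0.03 with SN-011. The values of Npc2 were 0.21, 0.11 and 0.15, those of Tcirg1 0.28, 0.17 and 0.17, and those of Atp6ap1 0.19, 0.20 and 0.16. Only Ctsc of the 4 was called lower with an antagonist than in Trex1-KO, with H151, and Atp6ap1 lay next to the threshold in Trex1-KO and with H151 (edgeR adjusted p = 0.0452 and 0.0504). Hexa, Atp6v0d2 and Atp6v1a were called above WT with each compound and not in Trex1-KO alone. Against untreated Trex1-KO none of the 3 was called with either compound, with log2 fold changes of 0.03, 0.06 and 0.02 for H151 and 0.05, 0.18 and 0.14 for SN-011. Atp6v0d2, a membrane subunit of the pump that is also abundant in osteoclasts, was at 21.1 and 23.5 CPM in WT, 27.8 and 26.1 in Trex1-KO, 28.0 and 28.3 with H151, and 30.3 and 31.1 with SN-011. All 6 libraries without Trex1 were above WT, and the log2 fold change from WT was 0.34 with H151 (edgeR adjusted p = 0.0405) and 0.46 with SN-011 (0.00663). The call on Atp6v0d2 with H151 was lost in DESeq2 (0.152), with library totals (0.0949), with no filter beyond 1 count (0.0853), with the 2 groups fitted alone (0.0776), and without any 1 library other than Trex1-KO replicate 2. Its call with SN-011 was lost without WT replicate 1 (0.103) or SN-011 replicate 2 (0.0649). The H151 call on Hexa was lost in DESeq2 (0.0576), edgeR's exact test (0.0683), with library totals (0.151), with the 2 groups fitted alone (0.117) and without any of 5 single libraries (up to 0.249). That on Atp6v1a was lost in DESeq2 (0.0567), the exact test (0.0536), with library totals (0.131), with the 2 groups fitted alone (0.0855) and without any of the same 5 libraries (up to 0.279), which were both WT and both SN-011 libraries and H151 replicate 2. With SN-011, Hexa was lost with library totals (0.0993) and without WT replicate 1 (0.188) or either SN-011 library (0.146 and 0.148), and Atp6v1a without WT replicate 1 (0.0518).

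The counts against WT depended on single libraries. With H151 they went to 10 members without either WT library and to 13 without SN-011 replicate 2. With SN-011 they went to 11 without WT replicate 1 and to 9 without SN-011 replicate 2.

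Genes that act beside the members were taken from 4 further lists. The regulators of TFEB (mTORC1, Rag GTPases, folliculin and calcineurin) had 2 of 26 called higher and 0 lower in Trex1-KO compared with WT, with a median log2 fold change of 0.06. That is no larger a share than the 9.27% of all genes called higher, so the count does not set the regulators apart. Rragd, a Rag GTPase, was at 27.6 and 31.0 CPM in WT and 39.5 and 35.3 in Trex1-KO (0.35 ± 0.10, edgeR adjusted p = 0.0318), and Fnip2, a partner of folliculin, was at 344 and 372 CPM in WT and 445 and 398 in Trex1-KO (0.24 ± 0.07, 0.0274). Both genes were without overlap between the groups. None of the 26 was called with H151 or SN-011 against Trex1-KO in edgeR's quasi-likelihood test, with 1 and 3 at an unadjusted p under 0.05.

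The other lysosomal hydrolases and their cofactors had 14 of 33 called higher and 2 lower in Trex1-KO, with a median of 0.20, compared with 9.27% of all genes called higher and 7.11% lower. The 2 lower are no larger a share than among all genes. Acp5, the tartrate-resistant acid phosphatase and one of the osteoclast markers above, was at 3.68 and 5.35 CPM in WT and 10.7 and 10.4 in Trex1-KO (1.21 ± 0.19, edgeR adjusted p = 0.000520). Ctse, an endosomal aspartic protease, was at 9.05 and 8.07 CPM in WT and 20.9 and 16.2 in Trex1-KO (1.11 ± 0.15, adjusted p = 0.000119). In the other direction, Ctsk, the collagen-degrading cathepsin and another of these markers, was at 6.77 and 6.64 CPM in WT and 4.07 and 2.84 in Trex1-KO (-0.97 ± 0.22, adjusted p = 0.00663). The groups of these 3 genes did not overlap, and all 3 were at low levels. Hgsnat, an acetyltransferase of heparan sulfate breakdown, was the other called lower (-0.68 ± 0.07). With SN-011, Acp2, the lysosomal acid phosphatase, was lower than in Trex1-KO (-0.30 ± 0.06, adjusted p = 0.0206), and with H151 0 of the 33 were called by edgeR's quasi-likelihood test (6 at an unadjusted p under 0.05).

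The other membrane, transport and sorting proteins had 7 of 21 called higher and 0 lower in Trex1-KO, with a median of 0.14 and 9.27% of all genes called higher. The largest were Slc15a3 (0.45 ± 0.06), a peptide and histidine carrier, Cd68 (0.44 ± 0.06), the macrophage relative of the LAMPs that is also one of the macrophage markers above, and Slc15a4 (0.32 ± 0.06), a second histidine carrier. With SN-011, Slc15a3 was lower than in Trex1-KO (-0.27 ± 0.06, edgeR adjusted p = 0.0321). Of 12 tested further subunits of the proton pump, 3 were called higher, Atp6v0a2 (0.30 ± 0.08), Atp6ap2 (0.20 ± 0.06) and Atp6v1c1 (0.19 ± 0.06), with a median of 0.10 and the same share of all genes as background. No further subunit was called with either antagonist in edgeR's quasi-likelihood test, with 0 and 1 at an unadjusted p under 0.05.

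Gpnmb, a lysosomal membrane glycoprotein of macrophages, was the gene of the 4 lists called with H151. It was at 4376 and 4428 CPM in WT, 4901 and 5329 in Trex1-KO, 6202 and 6782 with H151, and 5237 and 5280 with SN-011. The H151 libraries were the highest and the WT libraries the lowest, as for Ctsl. Its SN-011 libraries overlapped Trex1-KO, while those of Ctsl were above both Trex1-KO libraries. Its log2 fold change was 0.22 ± 0.05 in Trex1-KO compared with WT (edgeR adjusted p = 0.0109) and 0.34 ± 0.05 with H151 compared with Trex1-KO (adjusted p = 0.00200). The first call was lost with library totals (0.0996), without either WT library (0.0903 and 0.0584) and without Trex1-KO replicate 2 (0.0969), and the second was made under every alternative.

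**Figure D4:**
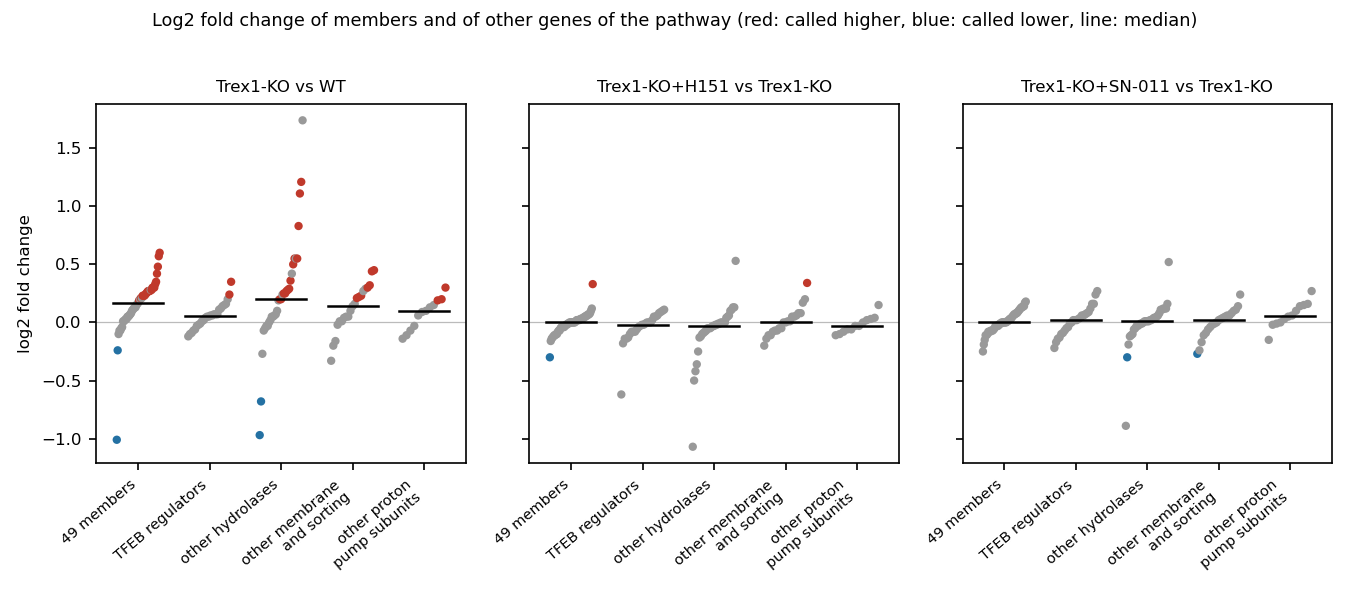
Log2 fold change of the 49 members and of the genes of 4 further lists of the pathway in 3 comparisons, with 1 point per gene and a line at the median of each list. The medians lie at 0.17, 0.06, 0.20, 0.14 and 0.10 in Trex1-KO compared with WT, and between -0.03 and 0.06 in both comparisons of an antagonist with Trex1-KO.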

How the data were processed

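Reads were trimmed by the authors in Trimmomatic and aligned with hisat2 (mm10 per the labels), and the deposited values are raw counts of uniquely mapped pairs per gene, without normalization. The methods name featureCounts and the labels HTSeq, and versions, annotation and strand setting are not given in the sources used here. Symbols and exons came from GENCODE M21 (GRCm38), which held 54495 of 54532 identifiers. Of 492 genes lying wholly in exons of an opposite-strand gene, 3 had a count.

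Counts of all 8 libraries entered 1 edgeR 4.0.16 quasi-likelihood fit (R 4.3.3) after TMM and filterByExpr (minimum count 10, minimum total 15), with two-sided F-tests and Benjamini-Hochberg adjustment over 14591 genes. SE was taken as the size of the log2 fold change divided by √F, and is approximate. Simulated data with 200 genes changed by 1.5 or 2 times gave back 79.5% and 96.0% of them for Trex1-KO vs WT. These data used 1 dispersion for all genes. Most members changed by less than 1.5 times (median log2 fold change of the raised members 0.27), and recovery at that size was not simulated. Alternatives were DESeq2 1.42.0, edgeR's exact test, library totals, other filters, fits of 2 groups, a replicate block and single libraries left out.

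Members and lists were chosen with earlier results of these data known. Named in full were the 3 factors, for each contrast up to 6 called members with the largest change, and up to 3 called genes per list; others were chosen after their values were seen.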

Additional observations from a re-analysis of the deposited data

Results flagged for a closer look

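Gpnmb differed between the libraries of the 2 STING antagonists, which were deposited apart. It was lower with SN-011 than with H151, with a log2 difference of -0.30 ± 0.05 (edgeR quasi-likelihood adjusted p = 0.0455, 2 libraries per group), and both SN-011 libraries (5237 and 5280 CPM) were below both H151 libraries (6202 and 6782 CPM). DESeq2 (adjusted p = 0.00557) and edgeR's exact test (0.0188) also called it. The call was lost without either WT library (0.0618 and 0.0577) or either SN-011 library (0.769 and 0.518), with the difference between -0.30 and -0.31 in each.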

How the results depend on the processing

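No called member changed direction under any alternative. Scaling by library totals moved the number of members called in Trex1-KO compared with WT from 23 to 14 and in Trex1-KO+H151 compared with WT from 21 to 10, and moved the median log2 fold change of the members from 0.17 to 0.09 in Trex1-KO and from 0.16 to 0.10 with H151 and to 0.10 with SN-011 compared with WT. The medians of all genes then lay at -0.09, -0.06 and -0.05. Against Trex1-KO the medians moved to 0.02 with H151 and 0.03 with SN-011.

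Fitting the 2 groups alone gave 1 called member in place of 2 for H151 and 1 in place of 0 for SN-011 compared with Trex1-KO, and 13 in place of 21 for H151 compared with WT. With no filter beyond 1 count, 1 member (Ctsc) was called with SN-011 compared with Trex1-KO and 2 (Ctsl and Ctsh) between the compounds, and the cause was not tested.

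With 1 library left out, the number of called members ran from 15 to 25 in Trex1-KO compared with WT, from 1 to 3 and from 0 to 1 for H151 and SN-011 compared with Trex1-KO, from 0 to 1 between the compounds, and from 10 to 23 and from 9 to 20 for H151 and SN-011 compared with WT. The medians ran from 0.12 to 0.19, from 0.13 to 0.17 and from 0.12 to 0.16 in the 3 comparisons with WT.

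Libraries with the same number did not deviate together in every pair of groups (correlation across genes 0.194 for Trex1-KO with H151, -0.00554 for Trex1-KO with SN-011), so the numbers were not taken as a pairing. Adding the replicate number to the fit as a block gave 1 called member (Ctsl) between the compounds, where the fit without it called 0.

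With 2 libraries per group, differences under about 0.14 on the log2 scale lay within the usual 95% interval of a member.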
